A study of Mus musculus with 6 samples.

Results

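Exoc3l, a gene for a protein related to the exocyst subunit Exoc3 (Sec6), and the 8 exocyst subunit genes Exoc1 to Exoc8 were followed in sorted mouse cells after Etv2 was switched on. The members are the probe sets (groups of array probes read as 1 value) whose annotated symbol is exactly one of these 9 names. They are 9 of the 18193 genes named by 1 symbol, and 20 of 45037 probe sets, 1 for Exoc3l and 19 for the subunits. Exoc3l was picked on its values in these same arrays, for its rise in every induced array, so its levels are described and not tested. The 8 subunits were selected by name, and their comparison between the groups was tested.

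The exocyst is a tether of 8 proteins that holds secretory and recycling vesicles at the plasma membrane before SNARE proteins fuse them. Exoc1 (Sec3) and Exoc7 (Exo70) bind phosphoinositides of the membrane, Exoc2 (Sec5) and Exoc8 (Exo84) bind the small GTPases RalA and RalB, and Exoc6 (Sec15) binds Rab11 on recycling vesicles. The complex delivers membrane and receptors to growing or migrating parts of many cell types, and Exoc6 is the gene mutated in the anaemic hbd mouse.

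RNA was measured on 6 Affymetrix arrays, and each value is a log2 expression level made by RMA. All cells came from the ES cell line ER71 A17C, of 129P2/Ola background, which carries a doxycycline-inducible Etv2 cassette (ER71 A2Lox.cre) in both groups. The 3 induced samples received doxycycline at 0.5 microg/ml from day 3.0 of embryoid body differentiation for 12 hours, and the 3 controls were untreated by the series' design text, although the treatment field of all 6 samples carries the doxycycline entry. Cells positive for Flk1, the protein of Kdr, were sorted from both groups at day 3.5. A single line was used, no line without the cassette was analysed here, and effects of doxycycline and of Etv2 therefore cannot be told apart. The labels do not say if replicates came from separate cultures, so p-values measure the spread between these arrays. Array medians lay between 7.34 and 7.40, and induced 2 stood apart, with the highest median, 7.40, and a lower quartile of 6.06, where the other arrays had lower quartiles of 5.96 to 6.01. The mesoderm markers Kdr, Pdgfra, Mixl1, Mesp1 and Eomes all stood above the median level of 7.35 in the mean of the 6 arrays. Their mean level was 11.63 to 12.32 in the induced arrays and 11.22 to 12.63 in the controls. Control 2 was the lowest of the 6 arrays, at 11.22, against 12.37 and 12.63 in controls 1 and 3. Endothelial markers (Cdh5, Pecam1, Tek, Tie1, Esam) averaged 6.44 to 6.69 in the induced arrays and 6.33 to 6.46 in the controls, with 1 of 5, Esam, above the median level. Undifferentiated ES cell markers stood high in both groups, at 11.19 to 11.52 in the induced arrays and 10.76 to 11.96 in the controls. For these markers control 2 was the highest of the 6 arrays, at 11.96, against 11.15 and 10.76 in controls 1 and 3. Above the median level were 1 of 5 blood markers (Itga2b), 2 of 4 visceral endoderm markers (Ttr, Apoa1) and 0 of 2 neuroectoderm markers.

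Etv2 itself read 13.27, 13.28 and 13.36 in induced arrays 1, 2 and 3, against 9.92, 8.59 and 10.71 in controls 1, 2 and 3. All induced arrays lay above all controls, and the controls were widely spread. The sources used here do not say if this probe set reads the cassette, the endogenous transcript or both.

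Exoc3l was higher in every induced array. Its 1 probe set, 1436536_at, read 8.42, 8.43 and 9.08 in induced arrays 1, 2 and 3, against 7.26, 7.08 and 7.61 in controls 1, 2 and 3. The groups did not overlap, and the lowest induced value was above the highest control value. The means were 8.64 ± 0.38 in induced arrays and 7.32 ± 0.27 in controls (SD, n = 3 each), a difference of 1.32 log2 units or 2.50-fold. Between arrays of the same replicate number the difference was 1.16, 1.34 and 1.47 for numbers 1, 2 and 3. Without induced 2 the difference was 1.43. In bulk RNA from sorted cells, a change in the number of cells that express Exoc3l and a change in RNA per cell cannot be told apart.

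By size, 2 of the 45037 probe sets had a larger positive difference than Exoc3l, those of Etv2 (3.56) and of Hprt, a purine salvage enzyme gene (1.57). The next below it among probe sets with non-overlapping groups were Nt5e, an adenosine-producing surface enzyme gene, at 1.13, and Crym, a thyroid hormone-binding protein gene, at 0.96. These values come from the contrast on which Exoc3l was picked and serve as its description. Within each group, the order of the Exoc3l levels was close to that of Kdr. Kdr read 9.56, 9.36 and 10.52 in induced arrays 1, 2 and 3, against 10.02, 8.40 and 10.97 in controls 1, 2 and 3. Number 3 was highest for both genes in both groups, and control 2 was lowest for both genes among the controls. The group means of Kdr, the gate's own gene, were 9.82 ± 0.62 in induced arrays and 9.80 ± 1.30 in controls (SD, n = 3 each). The difference was 0.016, with a 95% interval of -1.41 to 1.44. By replicate number it was -0.46, 0.96 and -0.45 for numbers 1, 2 and 3. The interval takes in changes as large as the Exoc3l difference, so the close means do not show that Kdr was level.

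**Figure D1:**
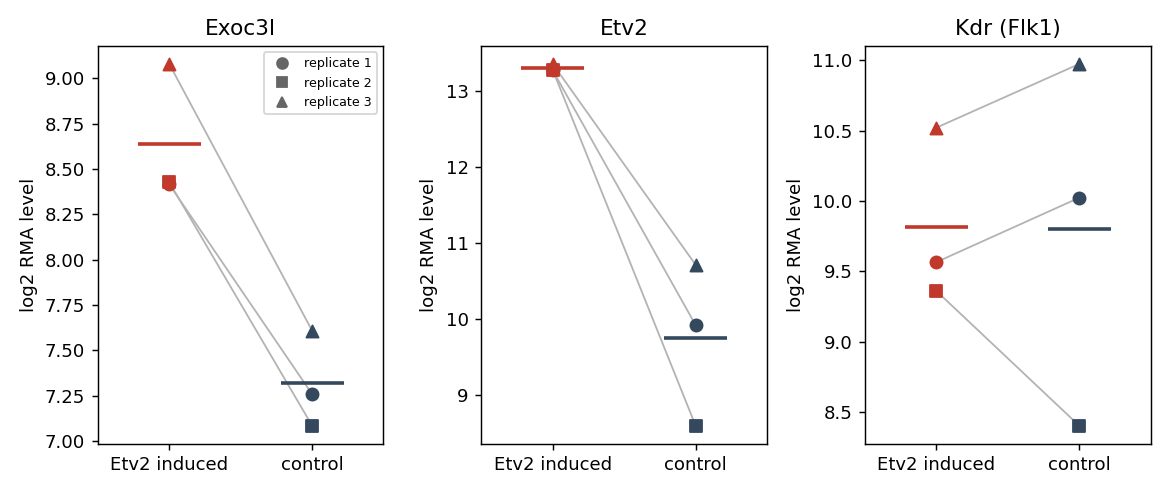
Log2 RMA levels of Exoc3l, Etv2 and Kdr in each array (points), with induced arrays left of controls, group means as bars and grey lines joining arrays of the same replicate number. Exoc3l lies between 8.42 and 9.08 in induced arrays and between 7.08 and 7.61 in controls, while the Kdr values of the groups overlap.

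The genes whose levels ran most like Exoc3l were sought among 722 genes with an SD of at least 0.3 over the 6 arrays. The median Pearson r with Exoc3l over those genes was 0.011. The 5 highest were Lmo2, a LIM-domain cofactor gene of blood and endothelial transcription factors (r = 0.974), Hprt (0.960), Etv2 (0.947), Rnase4, a secreted ribonuclease gene (0.933), and Crym (0.918). All 5 had induced arrays wholly above the controls. These values rest on 6 arrays in which the group difference itself makes up most of the pattern. With the group means removed, r with Exoc3l was 0.79 for Lmo2, 0.81 for Hprt, 0.58 for Etv2, 0.47 for Rnase4 and 0.50 for Crym. Kdr, which is not among these 5 and had r = 0.322 over the 6 arrays, then had 0.835, above all 5. The 5 were picked by r over the 6 arrays. The r with group means removed was not ranked over the 722 genes, so how many others reach such a value is not given.

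No exocyst subunit was called by limma's adjusted p over all probe sets. Of the 19 subunit probe sets 0 passed an adjusted p of 0.05, and the smallest adjusted p was 0.9998, in a table where 0.00222% of probe sets passed. The same threshold did not call Etv2 (difference 3.56, adjusted p = 0.9998), so missing it does not show that a subunit was level, and the intervals are given for that reason. At an unadjusted p under 0.05 there was 1 of 19, for Exoc8, against 1.53% of all probe sets. The differences ran from -0.28 to 0.33 log2 units, 11 negative and 8 positive, with a median of -0.041, beside a median of 0.0029 over all probe sets. The 95% intervals of the differences reached from -0.83 to 0.68 at their widest. Without induced 2 the subunit median was 0.016, with 8 negative and 11 positive.

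**Figure D2:**
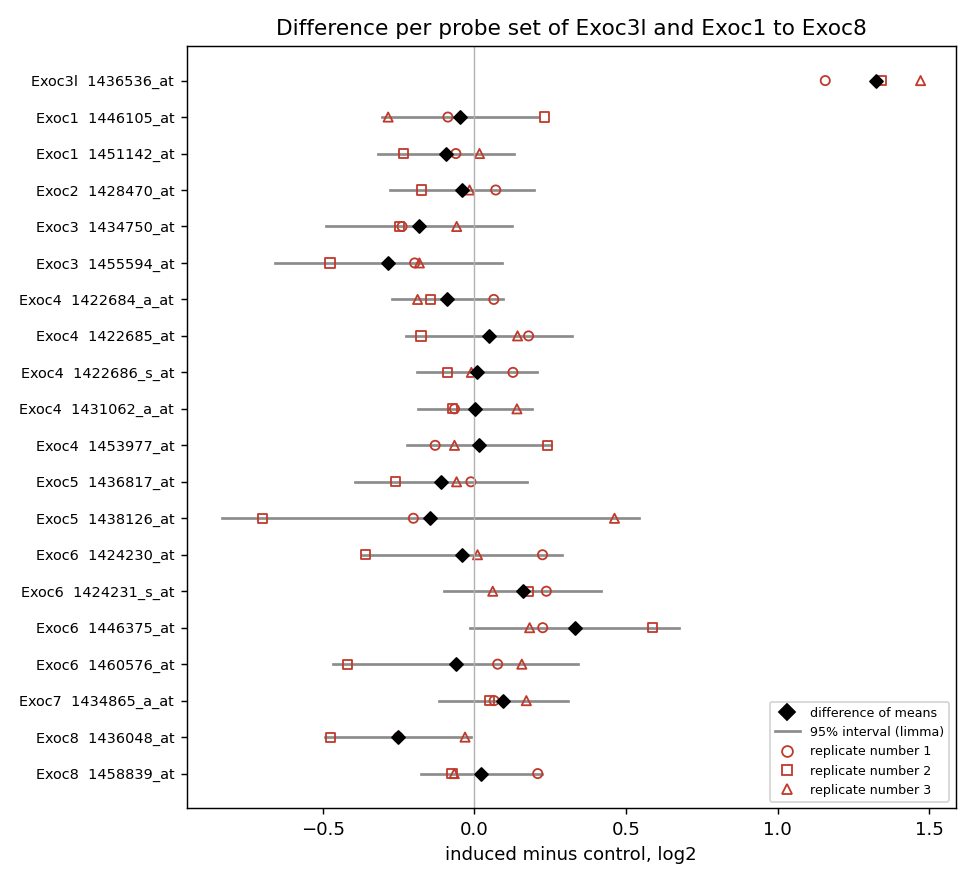
Induced minus control difference (log2) for each probe set of Exoc3l and Exoc1 to Exoc8, with the difference of means (diamonds), the difference within each replicate number (open symbols) and limma's 95% interval for the subunits (bars). Exoc3l stands at 1.32, and all 19 subunit probe sets lie between -0.28 and 0.33.

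Exoc3, the subunit to which Exoc3l is related, had its values on the lower side. Probe set 1434750_at read 10.03, 9.69 and 10.06 in induced arrays 1, 2 and 3, against 10.27, 9.93 and 10.12 in the controls. The other, 1455594_at, read 8.46, 7.94 and 8.51 in induced arrays, against 8.65, 8.42 and 8.69 in controls. In both probe sets each induced array was below the control of the same number, while the groups as a whole overlapped. The differences were -0.18 ± 0.13 and -0.28 ± 0.16 (SE, n = 3 each, limma adjusted p = 0.9998 for both). In the replicate block fit, which compares arrays within each number, the unadjusted p of 1455594_at was 0.023 and its adjusted p 0.9997. Without induced 2 the differences were -0.061 and -0.10. The 95% intervals of the Exoc3 differences were -0.49 to 0.13 for 1434750_at and -0.66 to 0.090 for 1455594_at. Both intervals held values of either sign, so the direction of Exoc3 was not settled. Exoc3l was picked for its rise, so a contrast of its sign with that of Exoc3 was not tested.

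The Ral-binding subunits gave no common direction. Exoc8 probe set 1436048_at read 9.14, 8.89 and 9.23 in induced arrays, against 9.39, 9.36 and 9.26 in controls. All induced arrays lay below all controls, an arrangement shown by 3.70% of all probe sets. The difference was -0.25 ± 0.10 (SE, n = 3 each), with a limma unadjusted p of 0.043 and an adjusted p of 0.9998, and it was -0.15 without induced 2. The limma unadjusted p was 0.054 in the replicate block fit, and 0.065, 0.092, 0.12 and 0.095 without induced 1, induced 2, control 1 and control 2. In the remaining alternatives it stayed under 0.05. There it ran from 0.023 without induced 3 to 0.049 with only probe sets at or above the median level kept. The other Exoc8 probe set, 1458839_at, stood below the median level of all probe sets and did not share this. It read 7.12, 7.06 and 7.02 in induced arrays, against 6.91, 7.13 and 7.09 in controls, a difference of 0.023 ± 0.085. Exoc2, with 1 probe set, read 9.02, 8.72 and 9.01 in induced arrays, against 8.95, 8.90 and 9.03 in controls. The Exoc2 groups overlapped, with induced 2 the lowest array. The difference was -0.040 ± 0.10, and 0.058 without induced 2.

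Exoc6, the Rab11-binding subunit, had 4 probe sets, 2 with positive and 2 with negative differences. The dim 1446375_at, below the median level, read 6.46, 7.02 and 6.61 in induced arrays, against 6.24, 6.44 and 6.43 in controls. All induced arrays lay above all controls, as in 2.72% of all probe sets, and the difference of 0.33 ± 0.15 (SE, n = 3 each) had a limma unadjusted p of 0.057 and an adjusted p of 0.9998. In the replicate block fit its unadjusted p was 0.020, and without induced 2 its difference was 0.17. The brightest, 1424231_s_at, read 9.40, 9.64 and 9.37 in induced arrays, against 9.17, 9.47 and 9.31 in controls, a difference of 0.16 ± 0.11 with overlapping groups, and of 0.073 without induced 2. The remaining pair, 1424230_at and 1460576_at, had differences of -0.041 ± 0.14 and -0.061 ± 0.17, with induced 1 highest and induced 2 lowest in each. Without induced 2 this pair stood at 0.10 and 0.088, so that all 4 were positive. Without induced 1 instead, the pair stood at -0.19 and -0.22. An ending of _s_at marks a probe set whose probes can match transcripts of more than one gene. Another 2 probe sets annotated to both Exoc6 and Sh3glb1 were left out by the rule.

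Exoc5 (Sec10), which joins Exoc6 to the rest of the complex, had negative differences in both probe sets, which turned positive without induced 2. The bright 1436817_at read 9.96, 9.60 and 10.00 in induced arrays, against 9.97, 9.86 and 10.06 in controls, a difference of -0.11 ± 0.12. Only induced 2 stood below the control range there, and without it the difference was 0.016. The dim 1438126_at had the widest spread of the subunit probe sets, from 4.77 in induced 2 to 5.99 in control 1. Its difference was -0.15 ± 0.29 (SE, n = 3 each), and 0.18 without induced 2. It was also positive, at 0.059, without control 1.

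The membrane-binding subunits had differences of both signs. Exoc1 probe set 1451142_at read 9.60, 9.32 and 9.58 in induced arrays, against 9.66, 9.55 and 9.56 in controls, a difference of -0.093 ± 0.096, and -0.0036 without induced 2. Its dim probe set 1446105_at differed by -0.047 ± 0.11, and by -0.13 without induced 2. Exoc7, with 1 probe set, read 8.71, 8.83 and 8.70 in induced arrays, against 8.64, 8.78 and 8.53 in controls. Each induced array was above the control of its number, the groups overlapped, and the difference was 0.096 ± 0.091 (SE, n = 3 each, limma adjusted p = 0.9998), or 0.053 without induced 2.

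Exoc4 (Sec8), a core subunit, had the most probe sets. The 5 differences ran from -0.089 to 0.048, with 4 positive and 1 negative. The brightest, 1422684_a_at, read 10.75, 10.63 and 10.58 in induced arrays, against 10.68, 10.78 and 10.76 in controls. In 1431062_a_at the induced arrays ran from 7.98 to 8.01 and the controls from 7.87 to 8.07, with a 95% interval of the difference of -0.19 to 0.19. The 95% intervals of the 5 differences lay between -0.27 and 0.32.

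Much of the spread among the subunits lay between arrays of the induced group. Induced 2 was the lowest of the 6 arrays in 7 of the 13 subunit probe sets at or above the median level, beside 34.3% of all such probe sets in the table. Among the 6 below the median level it was highest in 2 and lowest in 2, beside 45.8% and 13.7% of all dim probe sets. The mean of the 8 subunits, each by its brightest probe set, was 9.58, 9.42 and 9.57 in induced arrays 1, 2 and 3, against 9.59, 9.58 and 9.58 in the controls. Induced 2 was the array that stood off, below the other 5. By replicate number the median subunit difference was 0.064, -0.17 and -0.0098 for numbers 1, 2 and 3, beside -0.0073, 0.018 and -0.024 over all probe sets.

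**Figure D3:**
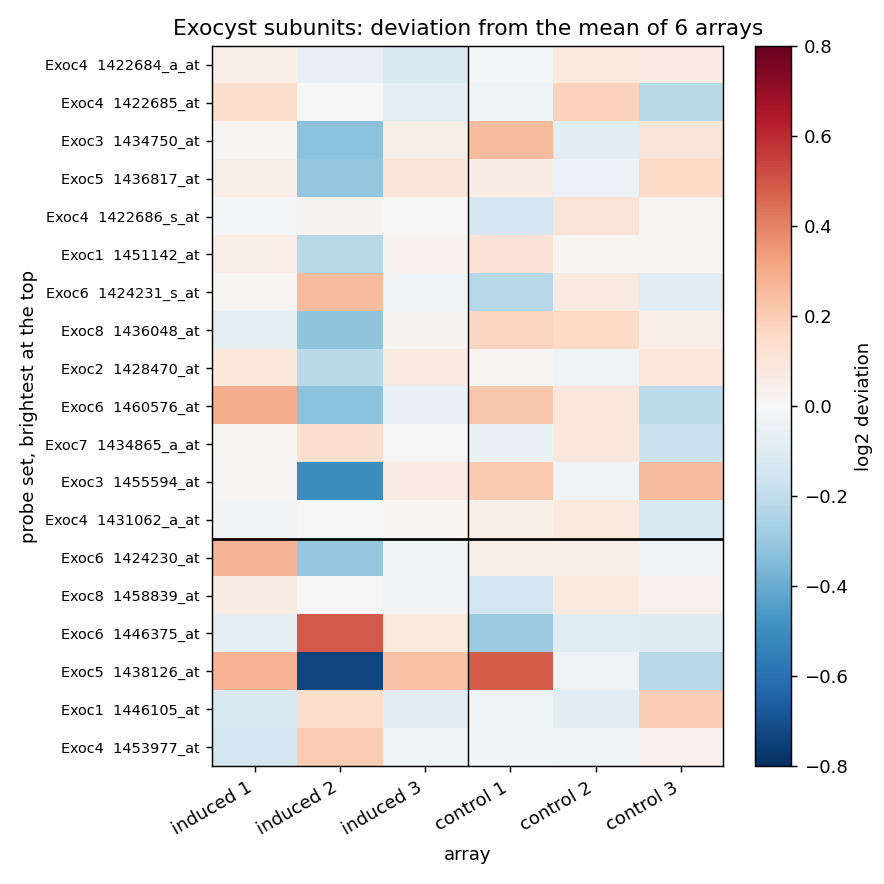
Deviation of each of the 19 exocyst subunit probe sets from its own mean over the 6 arrays (log2, colour), with arrays in columns, induced left of control, and probe sets in rows from bright to dim. The horizontal line separates the 13 probe sets at or above the median level from the 6 below it, and the induced 2 column is the lowest in 7 of the upper 13.

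Because Etv2 is an ETS-family factor, which binds DNA around a GGAA core, RefSeq promoter windows (GRCm38.p6, from 250 bases before to 50 after each start) were searched for CCGGAAG on both strands. Windows were matched for Exoc1 to Exoc8 and not for Exoc3l. The letters were found in the windows of 3 of these 8 genes, beside 9.93% of the 27025 genes in the table. The stretches are shown because they belong to subunits that did not pass the test, with the match in capitals; it reads CTTCCGG, since in each it lies on the strand opposite to the gene.
Exoc1, chr5:76529290-76529320, plus strand: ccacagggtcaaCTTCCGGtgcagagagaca
Exoc3, chr13:74208681-74208711, minus strand: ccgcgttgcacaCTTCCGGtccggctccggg
Exoc5, chr14:49066632-49066662, minus strand: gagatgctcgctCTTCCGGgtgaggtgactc
A match describes the letters alone, and no binding was measured here.

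The genes next to Exoc3l in the RefSeq order did not share its difference. The 8 measured neighbours, 4 on each side, had differences from -0.16 to 0.26, 6 positive and 2 negative. By limma's adjusted p 0 of 8 passed, and 1 had an unadjusted p under 0.05, against 1.53% of all probe sets. Without induced 2 there were 2 positive and 6 negative. E2f4, a cell cycle transcription factor gene and the nearest measured gene on one side, read 8.87, 8.96 and 8.78 in induced arrays, against 8.82, 9.07 and 9.18 in controls, a difference of -0.16 ± 0.11 (SE, n = 3 each). On the other side 4931428F04Rik differed by 0.013 ± 0.11. The neighbour with non-overlapping groups, induced above as in 2.72% of all probe sets, was Fhod1, a formin gene that acts on actin. Fhod1 read 8.69, 8.56 and 8.60 in induced arrays, against 8.41, 8.43 and 8.25 in controls. Its difference was 0.26 ± 0.084, with a limma unadjusted p of 0.016 and an adjusted p of 0.9998.

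**Figure D4:**
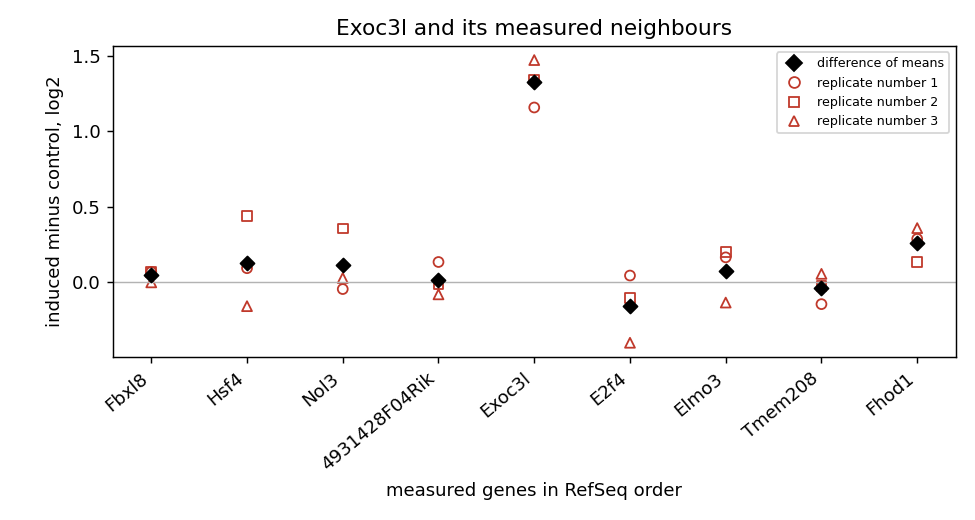
Induced minus control difference (log2) of Exoc3l and its 8 measured neighbours in RefSeq gene order, as the difference of means (diamonds) and the difference within each replicate number (open symbols). Exoc3l stands at 1.32, and the neighbours lie between -0.16 and 0.26.

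Other genes of vesicle tethering and fusion were compared in 4 lists, each gene by its brightest probe set. Of 53 measured genes 0 passed limma's adjusted threshold in either direction, and 1 had an unadjusted p under 0.05, against 1.53% of all probe sets. Among the Sec6-related genes and Exoc6b, 3 of 4 differences were positive, with a median of 0.088. Without induced 2 there were 2 of 4, with a median of -0.0042, and all 4 lay between -0.015 and 0.0051. Exoc3l4 stood at 6.24 in induced arrays and 6.10 in controls, a difference of 0.15 ± 0.13 (SE, n = 3 each), and Exoc6b, the paralog of Exoc6, at 9.20 in induced arrays and 9.33 in controls, a difference of -0.13 ± 0.27. The other Sec6-related genes were Exoc3l2, whose human counterpart has been tied to endothelial cell migration, at 0.063 ± 0.11, and Tnfaip2, a gene of membrane protrusions, at 0.11 ± 0.11.

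Small GTPases and regulators that act with the exocyst were split 10 positive and 10 negative, with a median of -0.0068. Rab11fip5, a Rab11 effector gene, had the largest difference, 0.23 ± 0.090 (SE, n = 3 each), with a limma unadjusted p of 0.033 and an adjusted p of 0.9998. All its induced arrays lay above all controls, as in 2.72% of all probe sets. Rgl1, a Ral exchange factor gene, had 0.17 ± 0.13, and 0.081 without induced 2. Rala and Ralb, the GTPases bound by Exoc2 and Exoc8, had 0.022 ± 0.12 and 0.088 ± 0.091. Rab11a, the GTPase bound by Exoc6, had 0.087 ± 0.098.

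SNAREs and their SM partners were positive in 4 and negative in 9 of 13 genes, with a median of -0.041. Vamp7 and Vamp3, vesicle SNARE genes of late and recycling endosomes, had the largest sizes, at -0.16 ± 0.11 and -0.16 ± 0.095 (SE, n = 3 each). Without induced 2 they were -0.047 and -0.12. The other tethers of the same fold family, the COG, GARP and Dsl1-type complexes, were positive in 5 and negative in 11 of 16 genes, with a median of -0.055. Vps50, an endosomal tether gene, had -0.23 ± 0.13, and Cog6, a Golgi tether gene, -0.21 ± 0.13. Without induced 2 they were -0.095 and -0.064, and the list had 7 positive and 9 negative members with a median of -0.013. Beside these counts, 48.8% of all probe sets had a negative difference. Besides Rab11fip5, the list genes with non-overlapping groups were Vps54, with induced above, and Vamp3 and Cog4, with induced below. Over all probe sets these arrangements were shown by 2.72% and 3.70%.

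**Figure D5:**
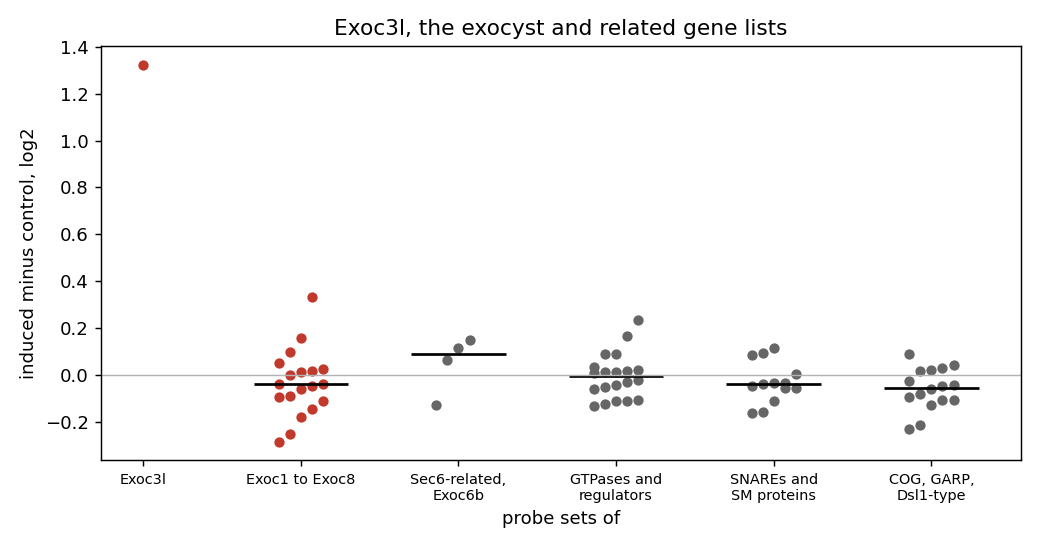
Induced minus control difference (log2) for Exoc3l, the 19 subunit probe sets and the genes of 4 related lists (points, each list gene by its brightest probe set), with list medians as bars. Exoc3l stands at 1.32, and the largest of the other values is 0.33, for an Exoc6 probe set.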

How the data were processed

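The deposited values are log2 expression levels, 1 per probe set and array, from RMA run by the authors according to the submitters' processing notes. RMA corrects background, equalizes the distributions of the arrays and combines the probes of a set. The sources used here give neither its version nor the probe annotation. Of 45101 probe sets, 64 Affymetrix controls were set aside, and 45037 were tested. The GEO platform annotation gave 1 symbol for 34945, several for 932 and none for 9160. All 9 members were found by Entrez identifier in RefSeq (GRCm38.p6) under the same symbols. Groups were taken from the sample titles.

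Induced and control arrays were compared with limma 3.58.1 in R 4.3.3 (two-sided, by lmFit and eBayes), and p-values were adjusted over all 45037 probe sets by Benjamini-Hochberg. The fit was tested on simulated data. Differences are induced minus control. Dim probe sets were kept, and the number of arrays limits the precision. An exact permutation test of 3 against 3 arrays has a smallest p of 0.1 and was not used. Deviations from the group means correlated at r = 0.25, 0.17 and 0.23 for replicate numbers 1, 2 and 3, all above 0.1, so the numbers were treated as pairs in the alternative with a block. Unmatched arrays also exceeded 0.1, induced 1 with control 2 (r = 0.18) and induced 3 with control 1 (r = 0.21), and no label states what a number marks. Other alternatives were renewed quantile normalization, median centring, a level filter, 1 probe set per gene, array quality weights and leaving out each array.

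The members and lists were chosen with earlier results of these data known. Every member is named, with Etv2 and Kdr, the 2 largest differences of each list, the 5 genes most like Exoc3l and 4 measured neighbours on each side. Exoc3l2, Tnfaip2, Rala, Ralb, Rab11a, Nt5e, Vps54 and Cog4 were named after their values were seen.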

Additional observations from a re-analysis of the deposited data

How the results depend on the processing

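The Exoc3l difference ran over the 12 alternatives from 1.10 without induced 3 to 1.47 without control 3; since it was picked for non-overlapping groups, its sign could not turn on leaving out an array. Of the 19 subunit probe sets and of the related genes, 0 passed limma's adjusted threshold in any alternative, and the smallest adjusted p of a subunit was 0.965. Without induced 2 the difference of 7 of the 19 subunit probe sets changed sign. The median subunit difference lay between -0.092 without induced 1 and 0.016 without induced 2. The unadjusted p under 0.05 for 1 subunit probe set, of Exoc8, became 2 with the replicate block and after renewed quantile normalization, and 0 without induced 2, control 1 or control 2. With the block the 2 were Exoc3 1455594_at and Exoc6 1446375_at, and the Exoc8 probe set was not among them. After renewed quantile normalization they were Exoc8 1436048_at and Exoc6 1446375_at. Without induced 1 it was Exoc6 1446375_at (limma unadjusted p = 0.019) in place of the Exoc8 probe set (0.065). The share of all probe sets at this threshold, 1.53%, was counted in the main fit only. The 1 probe set that passed among all 45037 became 0 with the replicate block, 0 with arrays centred on the median, and 0 (lowest and highest) on leaving out each array in turn. The cause was not tested, and leaving out an array also makes the number of arrays smaller. The replicate block changed no call of a member. Dim probe sets, 6 of the 19, have levels compressed by background, and scanner files were not used here, so detection calls could not be given.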
